A study of Homo sapiens with 6 samples.

Results

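Small nucleolar RNA (snoRNA) genes were examined for R-loop peaks in IMR90 cells, an embryonic lung fibroblast line. The members are all genes of the RefSeq annotation of GRCh38 whose symbol starts with SNORD, SNORA or SCARNA on chromosomes 1 to 22 and X. There were 573 of them among 59098 annotated genes: 362 box C/D genes (SNORD), 182 H/ACA genes (SNORA) and 29 genes of small Cajal body RNAs (scaRNA, SCARNA). The table lists 5 of the 573 as pseudogenes, and none of those had a peak in any list. Peak positions cannot check the labelled cell type.

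R-loops, in which RNA pairs with one DNA strand and displaces the other, were mapped by MapR. In this CUT&RUN-type assay micrococcal nuclease joined to RNase H (RH-MNase) cuts chromatin around RNA-DNA hybrids. The wild-type cells were grown at 2% oxygen and were either proliferating with a control vector, senescent after ectopic expression of Ras, or quiescent after starvation. Each state has 1 RH-MNase library and 1 GST-MNase library, and the 3 RH-MNase peak lists are used here. No source used here describes the Ras construct, the labels name no vector for the quiescent cells, and GST-MNase data were not analysed here. The lists hold 101802 proliferating, 85564 senescent and 9736 quiescent peaks. How deeply each library was read is unknown. Without replicates, a difference between states is one between 2 libraries, and no p-value is given. Fewer cells with an R-loop, less signal per cell and a shallower library cannot be told apart.

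Box C/D snoRNAs guide 2′-O-methylation and H/ACA snoRNAs guide pseudouridylation, mostly of ribosomal RNA. scaRNAs do the same for spliceosomal RNAs in Cajal bodies. Most human snoRNAs are cut out of introns of host genes, many of which encode ribosomal proteins or translation factors or are lncRNAs of the small nucleolar RNA host gene (SNHG) family. A few, such as U3 (SNORD3A), have promoters of their own. Hosts of this kind often begin with a terminal oligopyrimidine tract, a C followed by pyrimidines at the first base of the RNA. R-loops are common at the starts of transcribed genes. A host is here the shortest longer gene that contains the member, and 544 members had one. These lay in 297 distinct hosts.

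RefSeq lists a part of some members as a microRNA hairpin, and those parts are the member sequences used here. The following stretches (RefSeq, GRCh38.p14, hairpin strand, 5′ to 3′) are shown because they place peaks on the bases of the RNA. Such parts of SCARNA3 and SNORA36A, which had no proliferating or senescent peak, are left out. Capitals mark bases under a proliferating peak.
SNORA81 (chr3:186786676-186786777, + strand, in EIF4A2): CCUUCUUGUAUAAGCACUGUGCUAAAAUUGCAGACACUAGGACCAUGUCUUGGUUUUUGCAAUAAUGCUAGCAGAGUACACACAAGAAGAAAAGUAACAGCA
SNORA84 (chr9:92292461-92292547, - strand, in IARS1): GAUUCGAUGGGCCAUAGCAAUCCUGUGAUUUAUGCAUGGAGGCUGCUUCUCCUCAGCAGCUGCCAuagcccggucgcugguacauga
SNORA2C (chr12:48654444-48654518, - strand, in KANSL2): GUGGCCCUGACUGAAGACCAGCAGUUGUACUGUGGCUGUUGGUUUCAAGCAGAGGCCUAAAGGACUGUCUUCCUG
SCARNA16 (chr17:77089417-77089493, + strand, in SNHG20): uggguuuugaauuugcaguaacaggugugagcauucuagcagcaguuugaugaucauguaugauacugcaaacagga
SNORA36B (chr1:220200546-220200619, - strand, in RAB3GAP2): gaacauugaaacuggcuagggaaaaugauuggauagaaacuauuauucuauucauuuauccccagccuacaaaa

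The 102 bases of SNORA81 lie wholly under a proliferating peak, and so do the 75 bases of SNORA2C. By score these peaks rank in the top 34.9% and 92.0% of the list. In SNORA84 65 of 87 bases lie under a proliferating peak (top 81.4%), and the edge of the peak falls inside the RNA. SCARNA16 has a proliferating peak of 1308 bp that stops 22 bp before the gene, and a senescent peak of 1185 bp that covers all of it. SNORA36B had no peak in any list.

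The starts of the hosts are shown as well, because it is there that peaks were found most often. Each line gives 10 bases before and 20 bases from a start in RefSeq (GRCh38.p14). Capitals mark a run of at least 5 pyrimidines, counted from a C that lies within 5 bases of the start. The base before that C may be a pyrimidine too, so a marked run can be part of a longer one.
RPL13A (chr19:49487598-49487627, + strand): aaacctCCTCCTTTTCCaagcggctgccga
EIF4A2 (chr3:186783567-186783596, + strand): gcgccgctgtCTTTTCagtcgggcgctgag
TAF1D (chr11:93741476-93741505, - strand): aatagccaaCCCTTTTCTTCCgcacggttg
SNHG16 (chr17:76557754-76557783, + strand): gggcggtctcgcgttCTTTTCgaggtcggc
SNHG1 (chr11:62855866-62855895, - strand): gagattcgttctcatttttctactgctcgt
GAS5 (chr1:173869026-173869055, - strand): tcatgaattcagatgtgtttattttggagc
EIF4A1 (chr17:7572815-7572844, + strand): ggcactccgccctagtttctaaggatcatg

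Such a run, searched on the strand of the gene, was found at 75 of 225 host starts in the table (33.3%, 95% Wilson interval 27.5 to 39.7) and at 21.1% of all 27195 genes listed there. Among hosts with 2 or more members 29 of 57 had it, and among hosts with 1 member 46 of 168. Ribosomal protein and translation factor hosts had it in 17 of 28. The run is a match of letters and no measured start of transcription. SNHG1, GAS5 and EIF4A1 have none at the start listed.

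A peak within 200 bp of the gene was found for 95 of the 573 members in proliferating cells (16.6%, Wilson interval 13.8 to 19.8), for 39 in senescent cells (6.81%, 5.02 to 9.17) and for 2 in quiescent cells (0.349%, 0.0958 to 1.26). Over all annotated genes the shares were 46.1%, 42.3% and 13.8%. Those genes are mostly far longer than a snoRNA, whose median length is 97 bp, so other genes of at most 500 bp serve as a second background: 11.6% for the proliferating, 6.73% for the senescent and 1.01% for the quiescent list. Members thus lay 5.03 points above other short genes in proliferating cells (95% Newcombe interval 2.14 to 8.35). In senescent cells the difference was 0.0771 points (-1.78 to 2.49). These intervals, and all others below, cover counting error only, and members of 1 host can share a peak.

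Members with curated symbols stood apart from the 657 other snoRNA entries of the annotation, which carry no SNORD, SNORA or SCARNA symbol. Of those, 17 had a proliferating peak (2.59%), 7 a senescent peak (1.07%) and none a quiescent one, which allows a share of up to 0.457%. The difference from the members was 14.0 points in proliferating cells (10.8 to 17.4) and 5.74 points in senescent cells (3.63 to 8.17).

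**Figure D1:**
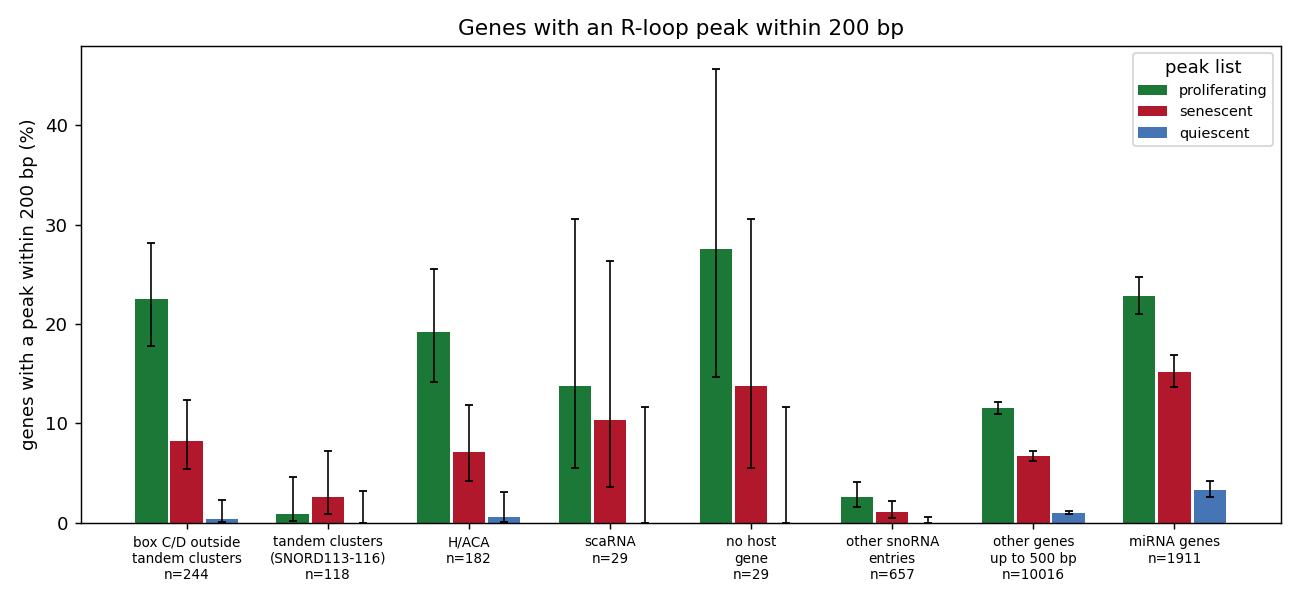
Share of genes with a peak within 200 bp (y axis, percent) in each group of genes (x axis, n below the name) and each peak list (colour); bars are shares and lines 95% Wilson intervals for counting error. Box C/D genes outside the tandem clusters reach 22.5% in proliferating cells and H/ACA genes 19.2%, while the tandem clusters stay at 0.847%.

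Of the 102 members with a peak in any list, 63 had one in proliferating cells alone, 30 in proliferating and senescent cells, 7 in senescent cells alone and 2 in all 3 lists. A proliferating peak without a senescent one was thus found for 63 of 573 members, where 6.84% of all genes and 6.05% of other short genes had that pattern. Both peaks were found for 32 members, where 39.3% of all genes and 5.5% of other short genes had both. A senescent peak without a proliferating one was found for 7 members, against 3.08% of all genes and 1.23% of other short genes. The number of members with a senescent peak was 41.1% of the number with a proliferating peak; for other short genes it was 58.3%, and for all genes 91.8%. With just the top-ranked proliferating peaks that together cover as many bases as the senescent list, 65 members had a proliferating peak and 39 a senescent one, a ratio of 60.0%. Other short genes then stood at 87.4% and all genes at 115%. With the 9736 highest peaks of each list the ratio went the other way, to 17 and 4 members (23.5%), against 41.8% for other short genes and 74.6% for all genes. Without peaks wider than 2000 bp it was 64.8%, against 78.2% and 100.7%. No test of this difference between single libraries can be made.

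Peaks at members were set beside the whole lists and beside the peaks at other short genes, since wide peaks reach a given position more often. The 83 proliferating peaks at members had a median width of 1417 bp, against 550 bp in the whole list, and 42.2% of them were wider than 2000 bp, against 8.05%. The 36 senescent peaks had a median of 751 bp against 468 bp. At other short genes the median width was 1248 bp for 1036 proliferating peaks, 29.7% of them wider than 2000 bp, and 692 bp for 646 senescent peaks. The score is the authors' own value per peak and is used only for ranks within a list. Where scores of different lists are printed side by side below, they are not on a known common scale. The median score was 32 at members and 22 in the list for proliferating cells, and 22 and 19 for senescent cells. At other short genes it was 32 and 21, so members were within 1 score unit of them. In proliferating cells 12 peaks served 2 or more members each.

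Cover of the gene and its flanks was compared between the states. In proliferating cells the gene and 200 bp on both sides were wholly under peaks for 44 of the 95 members with a peak (46.3%), and in senescent cells for 6 of 39 (15.4%). Among other short genes with a peak the shares were 46.6% and 22.8%. Among the 32 members with a peak in both lists, the covered share of this window was higher in proliferating cells for 22, higher in senescent cells for 6 and equal for 4. Its median was 100% in proliferating and 71.0% in senescent cells. Of 18 box C/D genes with both peaks, 15 had higher cover in proliferating cells, 1 in senescent cells and 2 had equal cover. Their medians were 100% and 75.2%. For 11 H/ACA genes these counts were 5, 4 and 2, and the medians 62.9% and 59.3%. Of 551 other short genes with both peaks, the share was higher in proliferating cells for 341, higher in senescent cells for 80 and equal for 130, with medians of 100% and 59.5%. Greater cover in proliferating cells was thus also seen at other short genes.

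Box C/D and H/ACA genes were compared next. With all members counted, 56 of 362 box C/D genes had a proliferating peak (15.5%) and 35 of 182 H/ACA genes (19.2%), a difference of -3.76 points (-10.9 to 2.75). In senescent cells the numbers were 23 (6.35%) and 13 (7.14%), a difference of -0.789 points (-5.92 to 3.40). In quiescent cells each class had 1. The box C/D class holds the 118 copies of the tandem clusters. Without them 55 of 244 box C/D genes had a proliferating peak (22.5%), and the difference from H/ACA turned to 3.31 points (-4.64 to 10.9). In senescent cells it was then 1.05 points (-4.43 to 6.11). Each of these intervals holds 0.

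Members alone in their host were compared as well, with 17 of 91 box C/D genes (18.7%) and 17 of 107 H/ACA genes (15.9%) in proliferating cells, a difference of 2.79 points (-7.70 to 13.6). Of the 29 scaRNA genes 4 had a proliferating peak and 3 of these a senescent one. SCARNA17 and SCARNA16 lie in SNHG lncRNAs, SCARNA13 in SNHG10, and SCARNA2 has no host. The 25 others, among them SCARNA10 in NCAPD2, had no peak in any list.

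The 4 tandem clusters hold the imprinted snoRNAs of 2 chromosome regions. SNORD113 (9 copies) and SNORD114 (31) lie in the lncRNA MEG8 on chromosome 14, in the maternally expressed domain. SNORD116 (30) and SNORD115 (48) lie in and around SNHG14 on chromosome 15, in the paternally expressed domain lost in Prader-Willi syndrome. SNORD115 is known for its expression in neurons. Of these 118 copies 1 had a proliferating peak (0.847%, 0.150 to 4.64), 3 had a senescent peak (2.54%, 0.868 to 7.21) and none a quiescent one, which allows a share of up to 2.54%.

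The arrays as a whole were nearly bare. From the first to the last copy, the SNORD113 array (chr14:100924821-100945719), the SNORD114 array (chr14:100949833-100993309) and the SNORD116 array (chr15:25051476-25108352) held no peak in any list over 121 kb together. The SNORD115 array (chr15:25170723-25269858, 99.1 kb) held 1 proliferating peak over 0.197% of its length, 5 senescent peaks over 2.36% and no quiescent peak. SNHG14 did have peaks elsewhere: in both lists they stood between 130830 and 133420 bp after its listed start, before the first SNORD116 copy.

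The 4 copies with a peak were all of SNORD115, and no copy had one in both lists. SNORD115-38 had a proliferating peak of 195 bp 19 bp beside it, with a score of 16, the top 70.7% of its list. SNORD115-19 and SNORD115-32 lay wholly under senescent peaks of 463 and 195 bp with scores of 13 and 18. SNORD115-27 shared 8 bp with a senescent peak of 976 bp and score 17. The senescent peaks ranked between the top 51.2% and 82.8% of their list. Copies of SNORD115 are near-identical, and no source used here says how reads that map to several places were treated. Which copy such a peak belongs to is therefore uncertain. How far the low number of peaks over the arrays depends on that treatment was not tested.

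**Figure D2:**
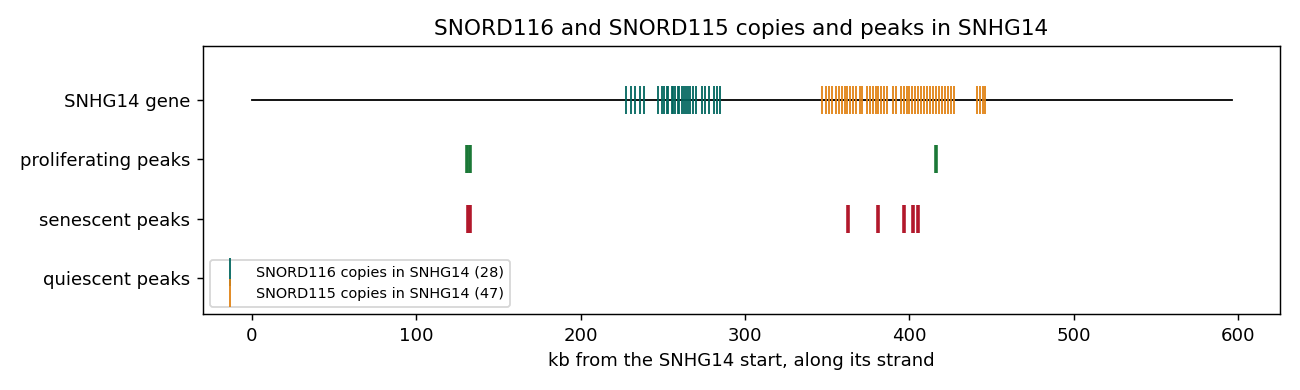
Positions of the SNORD116 and SNORD115 copies that lie in SNHG14 (top row) and of the peaks of each list (rows below) along the gene, in kb from its listed start. Both SNORD arrays lie beyond the pair of peaks near 131 kb that the proliferating and senescent lists share, and peaks inside an array are seen for SNORD115 alone.

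Single copies, the 223 members alone in their host, had a proliferating peak in 37 cases (16.6%), a senescent peak in 15 (6.73%) and a quiescent peak in 2 (0.897%). The tandem copies lay 15.7 points below them in proliferating cells (-21.2 to -10.0). In senescent cells the difference was -4.18 points, with an interval (-8.59 to 1.16) that holds 0. Against all other box C/D genes it was -21.7 points (-27.4 to -15.6) in proliferating and -5.65 points (-10.1 to -0.198) in senescent cells. Distance from a gene start moves with this contrast, since the copies in SNHG14 begin up to 446 kb after its listed start. Members outside the clusters that lie more than 5000 bp from their host start had a proliferating peak in 10 of 182 cases (5.49%). All 118 tandem copies together lay 4.65 points below those (-9.03 to -0.110). The senescent difference was then -2.40 points (-6.91 to 2.81). Distance is not matched for every copy. The 75 copies in SNHG14 begin at least 227.9 kb after its listed start, which had no peak within 200 bp in any list. The 40 in MEG8 have no listed start, and 2 SNORD116 copies lie in a host of 5258 bp. Nearly all copies thus lie in 2 hosts. The tandem intervals count each copy as a separate case and are likely too narrow. The part of reads that map to several copies in these differences was not tested.

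Members in shared hosts, outside the clusters, numbered 203 in 71 hosts. Of them 49 had a proliferating peak (24.1%) and 17 a senescent one (8.37%). They lay 7.55 points above single copies in proliferating cells (-0.0986 to 15.2) and 1.65 points above in senescent cells (-3.46 to 6.96), and both intervals hold 0.

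Most hosts had an R-loop peak at their start in proliferating and senescent cells. A peak within 200 bp of the start farthest upstream was found for 208 of 225 hosts in proliferating cells (92.4%, 88.2 to 95.2), for 159 in senescent cells (70.7%, 64.4 to 76.2) and for 57 in quiescent cells (25.3%, 20.1 to 31.4). Over all 27195 genes with a listed start the shares were 54.8%, 43.1% and 14.1%. The other 72 hosts were not in the promoter table.

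Most members of such hosts had no peak of their own. Where the host start had a proliferating peak, 60 of 307 members outside the tandem clusters had one too (19.5%, 15.5 to 24.3). For senescent cells this was 20 of 236 (8.47%, 5.55 to 12.7). For quiescent cells it was 1 of 88. Host start and snoRNA were under one and the same peak for 30 of the 61 members with a proliferating peak and a known host start, and for 10 of 24 in senescent cells.

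Members close to the host start had a peak more often than members far from it. The distance runs from the nearest listed start upstream of the member, and it is known for 332 members outside the clusters. In proliferating cells a peak was present at 8 of 8 members up to 500 bp from the start, at 13 of 17 up to 1000 bp, at 14 of 36 up to 2000 bp, at 16 of 88 up to 5000 bp, at 3 of 82 up to 20000 bp and at 7 of 100 beyond. In senescent cells the counts in the same order were 4, 4, 4, 3, 3 and 6. Within 2000 bp 35 of 61 members had a proliferating peak (57.4%), and beyond 5000 bp 10 of 182 (5.49%), a difference of 51.9 points (38.7 to 63.8). The senescent shares were 19.7% and 4.95%, a difference of 14.7 points (5.66 to 26.6). Beyond 5000 bp the lists of both states thus hold about the same number of members, 10 and 9.

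**Figure D3:**
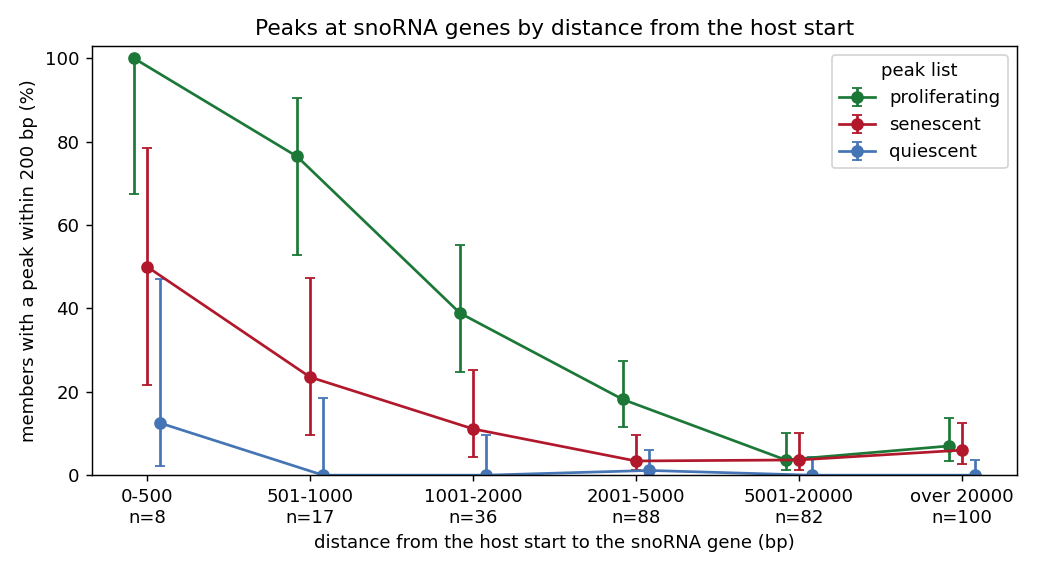
Share of members outside the tandem clusters with a peak within 200 bp (y axis, percent) by distance from the nearest upstream host start (x axis, bp, n below each bin), for each peak list; vertical lines are 95% Wilson intervals. The proliferating share falls from 100% of 8 members to 3.66% of 82, and the first 2 bins hold fewer than 20 members each.

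Around the snoRNA gene peak cover had no maximum at the gene itself. Along the host strand, 26 of 176 box C/D genes outside the clusters (14.8%) were under a proliferating peak at their middle. The share was highest 2900 bp upstream, towards the host start, with 57 genes (32.4%), and lowest 800 bp downstream, with 14 (7.95%). In senescent cells it was 3.41% at the gene, 18.8% at 2700 bp upstream and 1.70% at 400 bp downstream. For the 130 H/ACA genes the proliferating share was 11.5% at the gene, 21.5% at 2100 bp upstream and 5.38% at 1400 bp downstream.

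**Figure D4:**
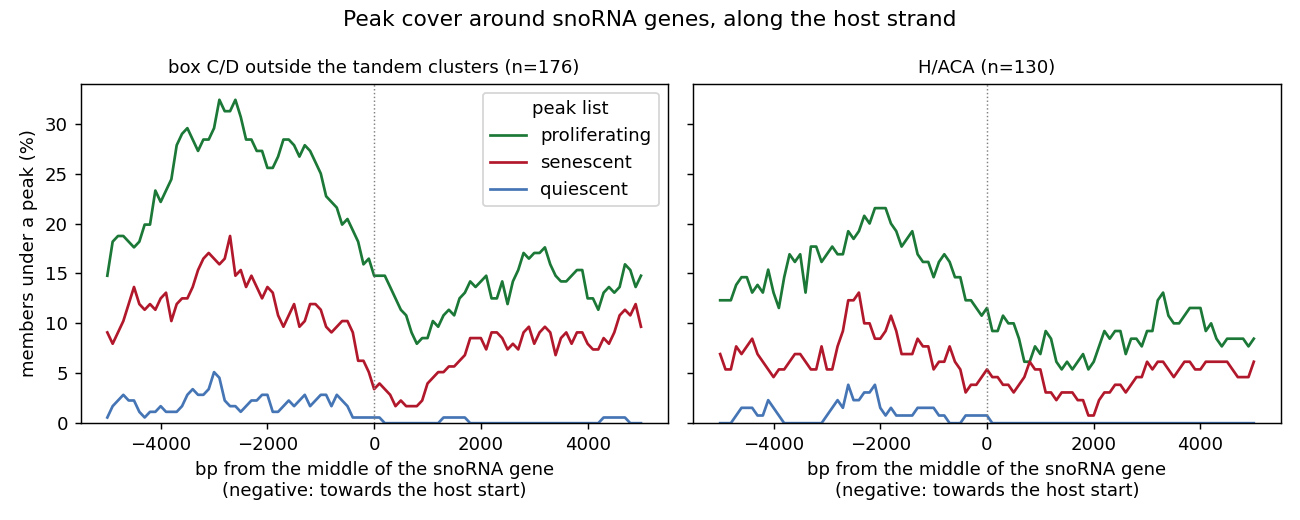
Share of members under a peak (y axis, percent) at each distance from the middle of the snoRNA gene (x axis, bp, negative towards the host start), for box C/D genes outside the tandem clusters (left) and H/ACA genes (right) and each peak list. Proliferating cover is highest between 2000 and 3000 bp upstream and lower at and just after the snoRNA in both classes.

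Cover of the snoRNA was also set beside cover of its host. For the 233 members outside the clusters in hosts of up to 20000 bp, the mean share of the snoRNA under proliferating peaks was 19.0%, and that of the whole host 26.1%. In senescent cells the means were 5.13% and 9.60%.

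Box C/D and H/ACA genes were also compared within 5000 bp of the host start. A proliferating peak was found at 30 of 96 box C/D genes (31.2%) and 18 of 47 H/ACA genes (38.3%), a difference of -7.05 points (-23.6 to 8.87). H/ACA genes lay farther from the start, with a median of 7598 bp (130 genes) against 4170 bp for box C/D genes outside the clusters (176 genes).

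The type of host moved with the share of members that had a peak. Ribosomal protein and translation factor genes hosted 82 members, of which 32 had a proliferating peak (39.0%) and 7 a senescent one (8.54%). SNHG lncRNAs and GAS5 hosted 62 members outside the clusters, of which 23 had a proliferating peak (37.1%) and 12 a senescent one (19.4%). Other protein-coding hosts held 246 members with 28 (11.4%) and 13 (5.28%). The first 2 groups lay 27.6 points (16.8 to 39.0) and 25.7 points (13.9 to 38.6) above the last in proliferating cells, and 3.25 (-2.35 to 11.6) and 14.1 points (5.39 to 25.8) in senescent cells. Distance moves with host type. Among members within 5000 bp of the start the proliferating shares were 38.5% of 52, 38.8% of 49 and 23.7% of 38, and the differences, 14.8 points (-4.84 to 32.1) and 15.1 points (-4.74 to 32.7), have intervals that hold 0. The senescent shares there were 3.85%, 20.4% and 7.89%. Their differences, -4.05 points (-17.25 to 6.45) and 12.5 points (-3.18 to 26.7), have intervals that hold 0 as well.

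GAS5, a lncRNA named for its accumulation in growth arrest, hosts 11 members on chromosome 1. Its proliferating peak ran from -328 to 1775 bp around the start and covered SNORD74, the first member. The senescent peak ran from 117 to 1211 bp and stopped 88 bp short of SNORD74. The quiescent list had 2 peaks, from -10 to 226 bp and from 602 to 864 bp, with no member within 200 bp. The 10 members further on, from 2107 bp after the start, had no peak in any list; SNORD76, SNORD44 and SNORD47 are among them.

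SNHG1 hosts 8 box C/D genes on chromosome 11. SNORD25, 254 bp after the start, lay wholly under a proliferating peak of 1643 bp (score 35) and 18 bp beside a senescent peak of 1056 bp (score 25). SNORD26 shared 17 of its bases with the same proliferating peak. SNORD27, at 802 bp, SNORD22, at 2850 bp, and the 4 members between them had no peak.

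RPL13A encodes a protein of the large ribosomal subunit, and its 4 snoRNAs are known for their part in the response to lipotoxic stress. Its start lay under a proliferating peak of 935 bp. SNORD32A lay 68 bp from a peak of 524 bp and 175 bp from one of 761 bp, and SNORD33 shared 23 of its bases with the first. SNORD34 and SNORD35A had no peak. In senescent cells none of the 4 had one, and no base of the gene was covered, against 35.2% in proliferating cells.

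EIF4A1 encodes a helicase of translation initiation and had a proliferating peak at each of its 3 members. SNORA48 lay under the peak at the start (3471 bp, score 68), SNORD10 under one of 870 bp (score 16) and SNORA67 under one of 3928 bp (score 48) at the end of the gene. In senescent cells only SNORA67 had a peak, of 2884 bp (score 22). Its relative EIF4A2, with 5 members, had a proliferating peak of 828 bp that covered SNORA81 and part of SNORA63B and lay 56 bp from SNORA63. It had no senescent peak anywhere in the gene.

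**Figure D5:**
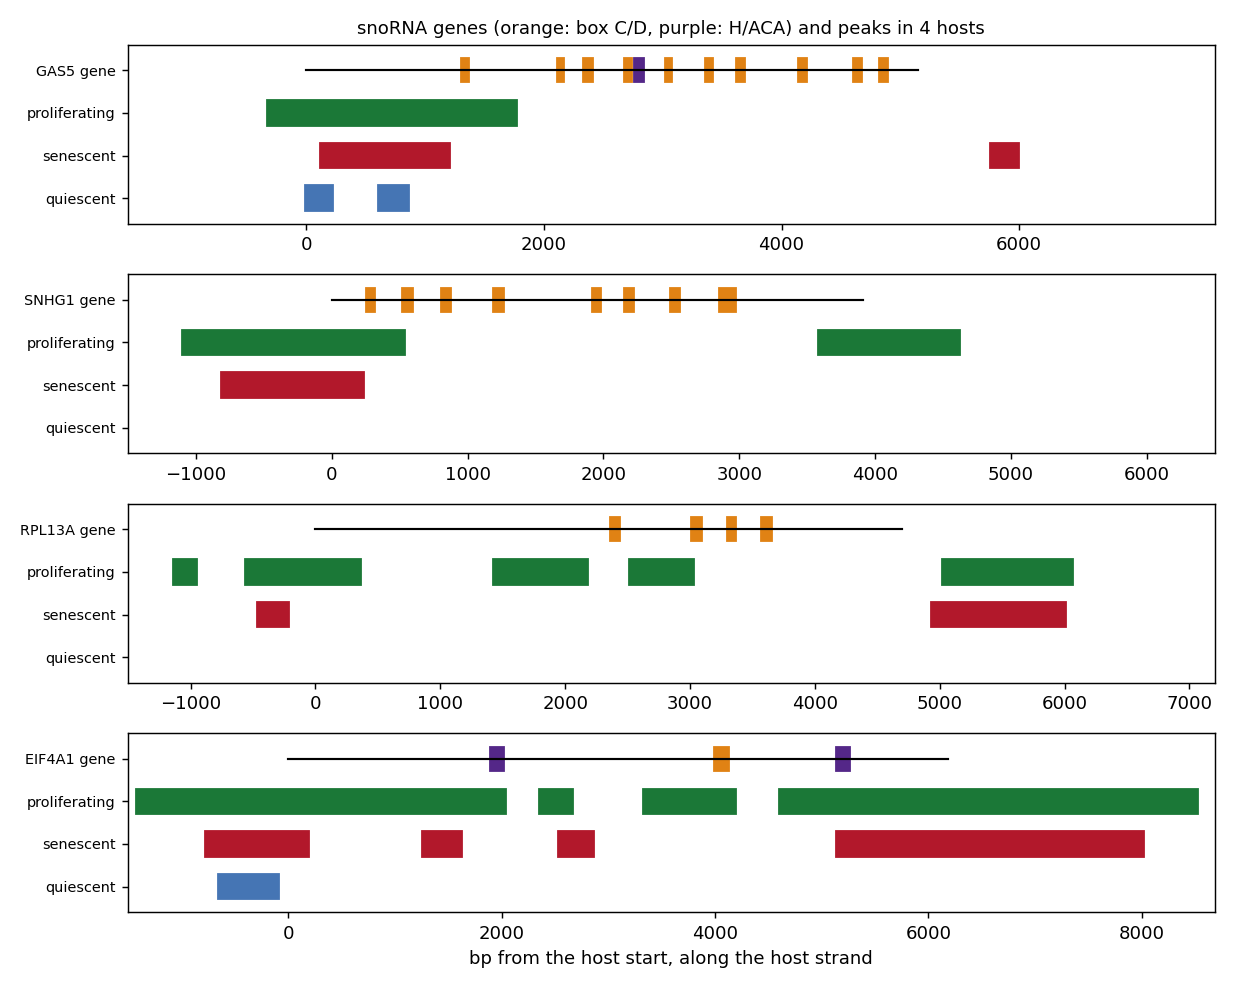
snoRNA genes (boxes on the line of the host gene) and the peaks of each list (bars below) in GAS5, SNHG1, RPL13A and EIF4A1, in bp from the host start along its strand. Peaks at the start reach the first member in GAS5, SNHG1 and EIF4A1 in proliferating cells, and senescent peaks are shorter or absent there.

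The lncRNA SNHG16 had proliferating peaks at 3 of 3 members and senescent peaks at 2. At the other extreme, TAF1D with 8 members and GNL3 with 5 had peaks at their starts in proliferating and senescent cells and none at any member.

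Just 2 quiescent peaks lay at members, and both members had a peak in every list. SNORD167 lies in ACAP3 on chromosome 1. It was wholly covered by a proliferating peak of 5814 bp, a senescent one of 3965 bp and a quiescent one of 1582 bp. Their scores of 71, 47 and 29 put them in the top 1.96%, 0.995% and 15.6% of their lists. SNORA57 lies 110 bp after the start of CSKMT on chromosome 11. It was wholly covered by peaks of 2104, 1024 and 544 bp with scores of 64, 32 and 38. These ranked in the top 3.47%, 8.17% and 4.83% of their lists. In both genes the peaks were widest in proliferating and narrowest in quiescent cells.

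Several other members had peaks in both the proliferating and the senescent list. SNORD84 in DDX39B, an export helicase gene, lay under a proliferating peak of score 79, in the top 1.01% of its list. It lay 17 bp beside a senescent peak of score 26, in the top 19.0%. SNORD148 in GPT2 was wholly covered in both lists (scores 61 and 30, top 4.38% and 10.9%). SNORD58B in RPL17 had peaks of 799 and 739 bp (scores 48 and 29, top 10.8% and 12.4%). SCARNA17 had peaks of 2556 and 2052 bp (scores 52 and 26, top 8.34% and 19.0%). SNORA71A in SNHG17, which lies 7885 bp from the listed start, was covered in both lists. Its peaks had scores of 37 and 38, in the top 20.2% of the proliferating and 3.43% of the senescent list. SNORA87 in TCF7L2, 95108 bp from the start, had peaks of 773 and 1196 bp in the top 26.4% and 32.1% of their lists, the median ranks of peaks at members. SNORD48 and SNORD52 in SNHG32 were covered in both lists. SNORD48 had scores of 42 and 22 (top 15.35% and 32.1%), and SNORD52 of 38 and 29 (top 19.1% and 12.4%).

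Proliferating peaks with no senescent peak within 5000 bp of the gene were found at 3 box C/D and 4 H/ACA genes, 1.22% of the members, where 3.61% of all genes and 2.12% of other short genes had that pattern. SNORD146 in SMARCC1 had the highest score, 66, from a peak of 293 bp that covers 26 of its 130 bases. SNORA71D (score 50) and SNORA116 in TULP4 (21) followed. SNORA13, in the lncRNA EPB41L4A-AS1, has been reported to act in oncogene-induced senescence; 89 of its 133 bases lay under a proliferating peak of 350 bp (score 19), and no senescent or quiescent peak lay within 5000 bp. SNORA2C (score 12, top 92.0% of its list), SNORD70 in NOP58 (14, top 81.4%) and SNORD115-38 were the others. In the reverse direction there were 4 box C/D genes, 0.698% of the members, against 1.95% of all genes and 0.539% of other short genes. They were SNORD65C in IGF2BP3, 119 bp from a senescent peak of 195 bp (score 23), and the 3 SNORD115 copies named above.

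SNORD50A and SNORD50B, in SNHG5, have been reported to bind Ras proteins. Neither had a peak within 200 bp in any list, while the start of SNHG5 had one in proliferating and quiescent cells and none in senescent cells. SNORA73A and SNORA73B (U17), which act in processing of the small-subunit rRNA, lie in SNHG3. SNORA73B was wholly under a proliferating peak of 337 bp (score 15), SNORA73A had no peak, and neither had a senescent peak within 200 bp. SNORD14C in HSPA8 had no peak in any list.

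Members without a host, 29 in all, had a proliferating peak in 8 cases (27.6%) and a senescent one in 4 (13.8%). U3, the snoRNA of early pre-rRNA cleavage, is encoded by near-identical copies on chromosome 17, and the 5 copies SNORD3A, SNORD3B-1, SNORD3B-2, SNORD3C and SNORD3D lay wholly under proliferating peaks. These were 3 peaks of 3499, 3622 and 3927 bp, with scores of 34, 27 and 38, and 2 of them each held a pair of copies. In senescent cells SNORD3A shared 34 of its 217 bases with a peak of 401 bp (score 11), SNORD3B-2 lay 148 bp from one of 217 bp (score 26), and the other 3 copies had none. Reads of such copies can map to several places, so the copies are not separate measurements.

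SNORD118 (U8), which acts in maturation of large-subunit rRNA, lies within the annotated TMEM107 and was wholly under a proliferating peak of 2183 bp (score 29). SNORD13 (U13), which guides acetylation of small-subunit rRNA, was wholly under one of 2600 bp (score 47). Neither had a senescent peak within 200 bp, though both had one within 5000 bp. SCARNA2 was wholly under a proliferating peak of 1325 bp (score 40), and 151 of its 420 bases lay under a senescent peak of 205 bp (score 21). SNORA50C, without a host, and its neighbour SNORD104 in SNHG25, on chromosome 17, shared a proliferating peak of 2520 bp; a senescent peak of 562 bp covered SNORD104 and lay 108 bp from SNORA50C.

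Beyond 5000 bp from the host start 13 members outside the clusters had a peak in proliferating or senescent cells. SNORD164 in CD44 lay 91 bp beside a proliferating peak of 566 bp. SNORA2C, whose bases are printed above, lies 27720 bp from the start of KANSL2. SNORD65C, SNORD151 in TNS3 and SNORA92 in TMEM184B had a senescent peak alone. Across these 13 members 7 were H/ACA and 6 box C/D genes.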

How the data were processed

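R-loops were mapped by MapR in IMR90 cells, with 1 RH-MNase library per state. The submitters' processing notes list MACS2 2.2.7.1, Bowtie2 2.4.5, FastQC 0.11.9 and, as the genome, GRCh38; no source used here gives the settings, the control or the read filters. The deposited lists give each peak's position and the authors' score, a whole number from 10 upwards on a scale that no source used here explains. Read depth is unknown, so the precision of a peak cannot be given.

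Members and their chromosome positions came from the RefSeq table of GRCh38.p14. A member had a peak where at least 1 bp of a peak lay within 200 bp of the gene. Strand and starts of hosts came from the RefSeq promoter table, where 225 of 297 hosts matched. Shares carry 95% Wilson intervals and differences Newcombe intervals; a count of 0 allows up to 3 counts. No p-value between states was computed. Overlap code was tested on simulated intervals (Python 3.11.15, pandas 2.3.3, scipy 1.17.1).

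Named members were, per class, up to 4 ranked highest in proliferating and senescent lists, up to 4 in one and without a peak within 5000 bp in the other, up to 6 quiescent ones, and a list of names. Members of hosts with 4 or more were described by host, for hosts picked with their values seen. EIF4A1, SNHG16, SCARNA13, SNORA84, SNORD104, SNORA50C, further SNORD3 copies and members far from a start were also named after their values were seen. Members and lists were chosen with earlier results of these data known. Distances of 0 and 1000 bp, equal peak numbers, equal covered length, score and width cuts and counting by locus were tried.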

Additional observations from a re-analysis of the deposited data

How the results depend on the processing

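There is 1 library per state, so no replicate could be left out. No paired analysis was possible because each group holds 1 library. The read depth is unknown, and an absent peak is not an absent R-loop. With distance 0 bp the shares of members with a proliferating and a senescent peak were 12.9% and 4.54%, with 20 members in both lists. With 1000 bp they were 27.7% and 16.2%, the quiescent share was 2.62%, 79 members were in both lists and 14 in the senescent list alone, and tandem copies lay -8.91 points from single copies in senescent cells (interval below 0). With the 9736 highest peaks of each list the shares were 2.97% and 0.698%, with 3 members in both, 14 in the proliferating and 1 in the senescent list alone. With peaks scored at least the list's median they were 12.6% and 4.01%, with 20 in both and 3 in senescent alone, and the senescent tandem difference was -4.93 points (interval below 0). At equal covered length the proliferating share was 11.3%, with 40 in proliferating and 14 in senescent alone. Without peaks wider than 2000 bp it was 9.42%, with 16 in both, 38 in proliferating and 19 in senescent alone, and box C/D lay -5.45 points from H/ACA in proliferating cells (-11.6 to -0.191). With peaks of all widths, the proliferating box C/D minus H/ACA difference was 3.31 points without the tandem clusters (-4.64 to 10.9). For members alone in their host, an alternative chosen after the data were seen, it was 2.79 points (-7.70 to 13.6). Against all other box C/D genes the senescent tandem difference was -5.65 points (interval below 0). Under each of these alternatives more members had a proliferating than a senescent peak, and the proliferating difference between tandem and single copies stayed below 0 with its interval. Those intervals too count tandem copies or loci of 2 chromosome regions as separate cases. Counting 482 loci in place of 573 members, leaving out the SNORD3 and SNORD13 families or taking the start farthest upstream (the last 2 chosen after the data were seen) moved no share outside its interval.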

Other observations

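With the tandem copies counted, snoRNA genes had peaks within 200 bp less often than miRNA, tRNA and snRNA genes. Of 1911 miRNA genes 436 had a proliferating peak (22.8%) and 290 a senescent one (15.2%), a difference, snoRNA members minus miRNA genes, of -6.24 points in proliferating (-9.66 to -2.50) and -8.37 points in senescent cells (-10.8 to -5.55). Of 443 tRNA genes, which are transcribed from promoters of their own, 266 had a proliferating peak (60.0%) and 128 a senescent one (28.9%). Of 154 snRNA genes 58 (37.7%) and 22 (14.3%) had one. The 455 members outside the tandem clusters stood at 20.7% (17.2 to 24.6) in proliferating and 7.91% (5.77 to 10.8) in senescent cells. Their proliferating interval overlaps that of miRNA genes (21.0 to 24.7). The senescent interval of these members lies below that of miRNA genes (13.64 to 16.85). In proliferating cells the other snoRNA entries (2.59%) and other genes of at most 500 bp (11.6%) lay below the members.

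Members whose host begins with a pyrimidine run had a proliferating peak in 33 of 126 cases (26.2%) and the others in 28 of 206 (13.6%), a difference of 12.6 points (3.87 to 21.8). In senescent cells the shares were 8.73% and 6.31% (difference 2.42 points, -3.22 to 9.16). The median distance from the host start was 3552 bp for the former and 11546 bp for the latter, and the part of distance in this difference was not tested. The promoters of hosts had a median GC content of 63.0%, against 58.3% for all genes in the promoter table.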
